A study of Rattus norvegicus with 8 samples.

Results

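The endothelin system of the rat ovary was examined as 6 genes: the ligands Edn1, Edn2 and Edn3, the receptors Ednra and Ednrb, and the converting enzyme Ece1. Probes were taken as members where the gene name given in the scanner files was one of these symbols. This found 5 of the 6 genes, with 7 of the 30367 probes and 5 of the 26214 names on the array. No probe carried the name Edn2. A single probe named TC596356 is described in the files as the precursor of that peptide, and its accession is paired with Edn2 in the RefSeq gene table. It is given beside the members as the Edn2 probe.

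Endothelins are short peptides cut from longer precursors, first by furin-like proteases and then by an endothelin-converting enzyme such as the product of Ece1. They act on a pair of G protein-coupled receptors: the Ednra product, on smooth muscle, drives contraction through Gq, phospholipase C and calcium release, whereas the Ednrb product, abundant on endothelium, also clears endothelin and evokes nitric oxide release. In the rodent ovary Edn1 is known from blood vessels, and Edn2 is known for a short burst of transcription in granulosa cells of follicles close to ovulation.

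Ovaries of immature female rats were measured on 4 control arrays and on 4 arrays labelled PMSG, for pregnant mare serum gonadotropin, which drives the growth of ovarian follicles. Animals received 50 IU of it under the skin at 26 days of age, in 0.2 ml of an albumin phosphate buffer, and controls received the buffer alone. Ovaries were collected 48 h afterwards, at 28 days. Strain, genotype and whether each array held a separate animal are not given in the sources used here, so the p-values measure the spread between these arrays. Tissue RNA was measured in bulk, where more or fewer cells of a type and more or less RNA per cell cannot be told apart.

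Values are log2 processed signals minus the array's 75th percentile of log2 signal, so 0 is the level of a probe at that percentile. This percentile lay between signals of 769 and 1103, and 80.8% to 84.6% of probes were well above background on an array. Of 25303 probes tested with limma, 34.2% differed between labels at an adjusted p under 0.05, 17.6% higher and 16.6% lower in arrays labelled PMSG, and the median difference of all tested probes was 0.11. With each array centred on its median instead, that median was -0.05, and the split of 4452 higher and 4206 lower probes became 2914 higher and 5534 lower. Direction follows the array labels throughout, because hormone-responsive genes ran against what is generally known of gonadotropin treatment: Lhcgr, the luteinising hormone receptor, was lower by 1.93 in arrays labelled PMSG (adjusted p = 0.00114, limma), and Amh, a product of small growing follicles, was higher by 3.03 (adjusted p = 0.000261, limma). An exchange of the labels would turn every sign given here, and whether one occurred was not tested.

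Granulosa and theca cell genes were well above background on all 8 arrays, among them Inha, Foxl2 and Cyp17a1. Lists of cell type markers differed between the labels. All 5 oocyte markers were higher in arrays labelled PMSG (mean level of the list per array -0.11 to 1.03 against -1.67 to -0.93 in control), with Zp2 higher by 2.17 (adjusted p = 0.00148, limma). All 5 oviduct epithelium markers were higher too (-0.91 to -0.54 against -3.17 to -2.46), 4 of them with the deposited log2 table, where Dnah5 did not pass (adjusted p = 0.221, limma), and Muc1 was above background on 3 and Dnah5 on 2 of the 4 control arrays. For Muc1 the arrays labelled PMSG were at least 8.03-fold above control, a bound that sets each control array at the higher of its own value and its dimmest spot well above background (adjusted p = 0.000171, limma). Of 5 macrophage and leukocyte markers, 4 were higher (0.39 to 0.48 against -0.28 to 0.09), or 3 under median centring, among them Ptprc at 0.69 (adjusted p = 0.00447, limma) and Aif1 at 0.68 (adjusted p = 0.00444, limma). Of 12 endothelial markers, 5 were lower and 2 higher, with a median difference of -0.44 and list means of -1.21 to -1.01 against -1.10 to -0.78. None of the 8 smooth muscle or 5 pericyte markers passed in limma, with 0 and 1 at an unadjusted p under 0.05. Under quantile normalization, normexp and the deposited log2 table, 1 pericyte marker was called higher. Of 3 theca markers, Insl3 was higher by 2.60 (adjusted p = 0.000347, limma), Lhcgr lower, and Cyp17a1 differed by -0.22 without passing, and of 5 granulosa markers Amh alone passed in this fit. The part of these lists in the results below was not tested.

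The probes are 60 bases long, and the files place them on the rn4 build. The Edn1 probe lies at chr17:28304023-28304082 on the minus strand, the Edn2 probe at chr5:140748047-140748106 on the plus strand, and the Edn3 probe at chr3:166510899-166511843 on the plus strand. That last interval spans 945 bases and is longer than the probe. The Ednra probes lie at chr19:32108094-32108153 and chr19:32102982-32103041 on the plus strand, the Ednrb probe at chr15:87896574-87896633 on the minus strand, and the Ece1 probes at chr5:156737298-156737357 and chr5:156735668-156735727 on the plus strand. Exon and UTR positions were not analysed here. Levels of different probes are not set against each other, since each binds with its own strength, and the genes are therefore not ranked by level.

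The sequences of 3 probes are shown. The dimmer Ednra probe and the Ednrb probe are set out together because they cover the same stretch of the 2 receptors: in an overlap of 49 bases, 43 are identical (87.8%), and the 6 that differ are in capitals. Of these 6, 5 fall in the same phase of a reading frame, and the longest run shared without a difference is 11 bases. The Edn3 probe is shown as that of the ligand whose difference was called higher under all 17 alternatives, and it has no capitals.
Ednra dimmer probe: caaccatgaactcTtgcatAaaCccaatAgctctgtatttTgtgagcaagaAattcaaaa
Ednrb probe: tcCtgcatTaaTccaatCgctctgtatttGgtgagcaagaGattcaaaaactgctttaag
Edn3 probe: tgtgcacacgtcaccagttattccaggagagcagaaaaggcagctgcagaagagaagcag

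Among the 7 member probes, 5 passed an adjusted p of 0.05 and the same 5 did not overlap between the labels, against 34.2% of all tested probes called and 36.6% without overlap. They belong to 4 genes: Edn1 and Edn3 were higher in arrays labelled PMSG, and Ednra and Ece1 were higher by their brighter probe, the latter also lower by its dimmer probe. Ednrb did not pass. The Edn2 probe was lower. Counted by each gene's brightest probe, 4 of 5 genes passed, and 2 of 5 did so with arrays centred on the median, with replicate number as a block, or with a gene's probes averaged. Leaving out any 1 array left 3 genes without PMSG 3 or PMSG 4 and 2 otherwise. Under median centring Edn1 and Edn3 were the 2.

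**Figure D1:**
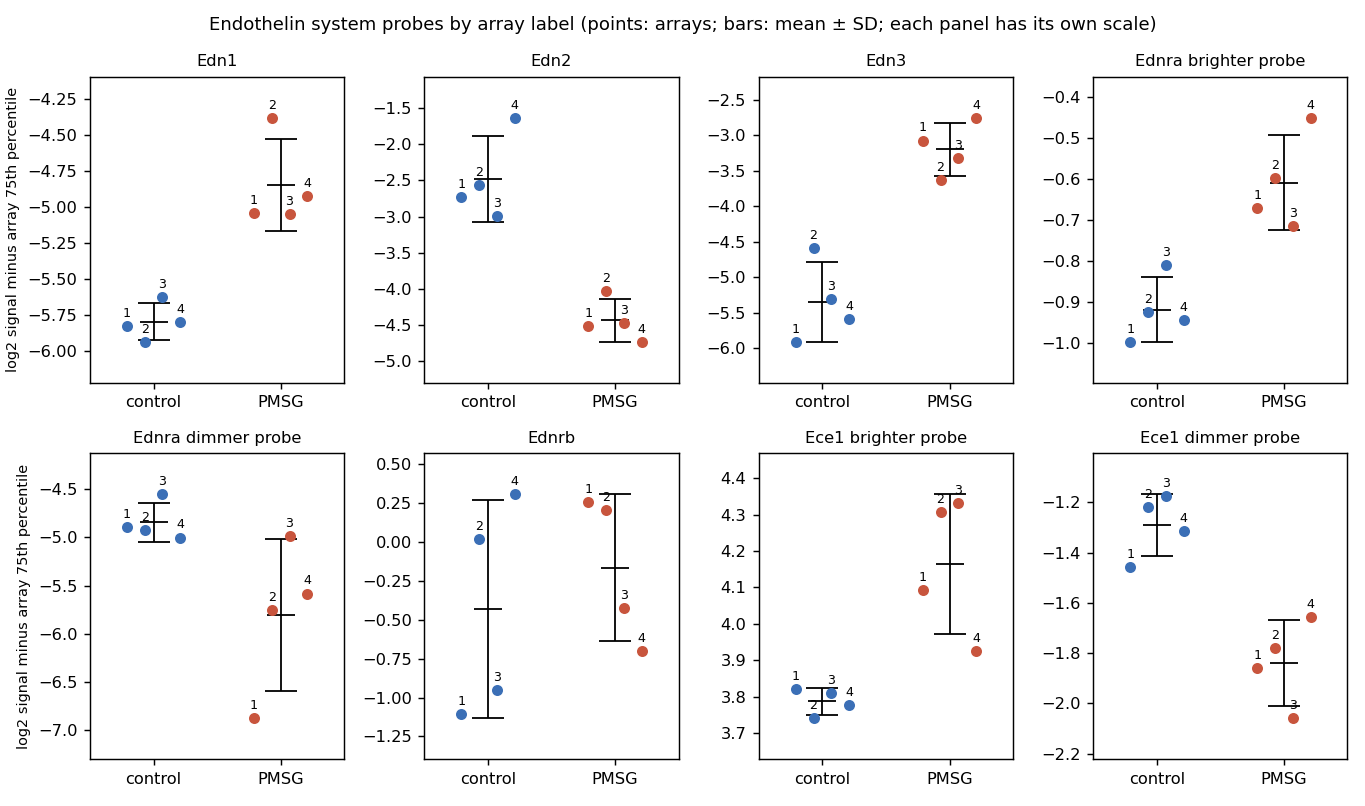
Each panel shows 1 probe, with log2 signal minus the array's 75th percentile on the vertical axis and the array label on the horizontal axis; points are the 4 arrays of a label, numbered by replicate, and bars are the mean ± SD. The labels are apart for Edn1, Edn2, Edn3, the brighter Ednra probe and both Ece1 probes, and they overlap for Ednrb and the dimmer Ednra probe.

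Edn1 encodes the ligand of vascular endothelium, a strong vasoconstrictor. Its levels were -5.83, -5.94, -5.63 and -5.80 on control arrays 1 to 4 and -5.04, -4.38, -5.05 and -4.92 on the arrays labelled PMSG. All 4 arrays labelled PMSG lay above all 4 controls, and replicate 2 was the highest of them. The means were -5.80 ± 0.13 and -4.85 ± 0.32 (SD, n = 4 each), a difference of 0.95 (SE 0.17, 95% CI 0.57 to 1.34), or 1.94-fold (adjusted p = 0.00316, limma). The probe is dim, with a mean signal of 25.0 before scaling, but it has 10 spots on each array, of which 7 to 10 were used and all of those were well above background. The SD between its spots within an array had a median of 0.19. Edn1 missed the threshold under quantile normalization, at 0.65 (adjusted p = 0.0671, limma), and was 0.39 under normexp, where it passed (adjusted p = 0.0103, limma). Normexp background correction added an offset of 50 to every signal, which by construction shrinks the log2 differences of dim probes, here and below.

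Edn2 encodes a peptide that acts on both receptors much like that of Edn1. Its levels were -2.73, -2.56, -2.996 and -1.63 on the control arrays and -4.51, -4.03, -4.47 and -4.74 on those labelled PMSG. Every control array lay above every array labelled PMSG, with control 4 the highest. In arrays labelled PMSG, Edn2 was lower, with a difference of -1.96 (SE 0.29, 95% CI -2.63 to -1.28) between means of -2.48 ± 0.59 and -4.44 ± 0.30 (SD, n = 4 each), so that controls were 3.88-fold higher (adjusted p = 0.00162, limma). The control SD exceeded that of 92.8% of tested probes. The call held under all 17 alternatives, with values of -2.14 to -1.14, the smallest under normexp background correction.

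Edn3 encodes the ligand that binds the Ednrb product as strongly as the other peptides do but the Ednra product weakly, and it is known from the development of neural crest cells. Its levels were -5.91, -4.59, -5.31 and -5.59 on the control arrays and -3.08, -3.64, -3.33 and -2.75 on those labelled PMSG. All 4 arrays labelled PMSG lay above all 4 controls, of which control 2 was the highest. The difference was 2.15 (SE 0.30, 95% CI 1.46 to 2.84) between means of -5.35 ± 0.56 and -3.20 ± 0.37 (SD, n = 4 each), or 4.44-fold (adjusted p = 0.00115, limma). This was among the 11.8% of tested probes that were called with a difference of at least 2-fold. The call held under all 17 alternatives, from 1.09 with normexp to 2.40 without 1 array. Edn3 was dim on the control arrays, with signals of 17.3, 43.9, 25.3 and 23.0 before scaling, so the fold rests on control values close to background.

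**Figure D2:**
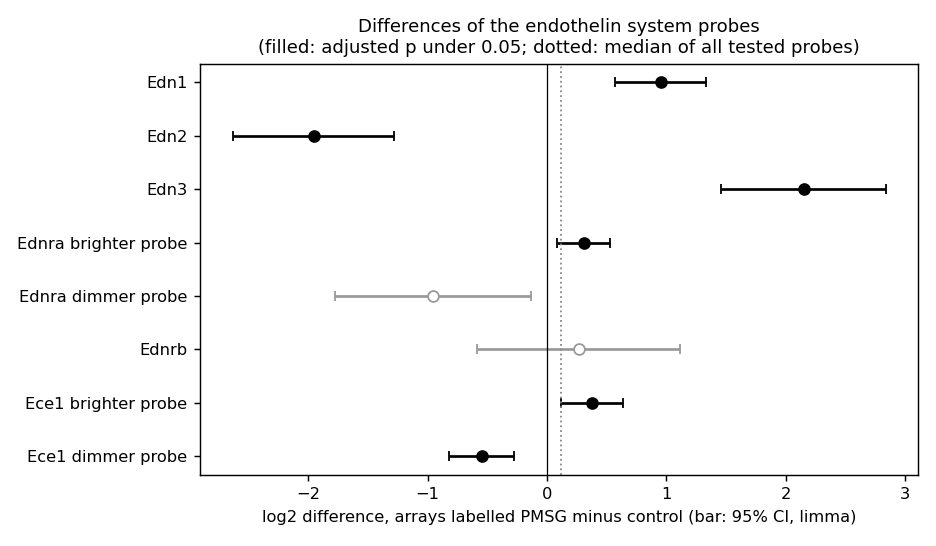
Log2 difference of each probe between arrays labelled PMSG and control (points) with its 95% confidence interval from limma (bars); filled points passed an adjusted p of 0.05, and the dotted line is the median of all tested probes at 0.11. Edn3 and Edn2 lie farthest from that line on opposite sides, and the 2 probes of Ednra and of Ece1 lie on opposite sides of 0.

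The ligands therefore differed in direction. The level of Edn1 minus that of Edn2 on the same array moved by 2.91 between labels, without overlap: -3.10, -3.38, -2.63 and -4.17 on the control arrays against -0.53, -0.35, -0.58 and -0.18 on those labelled PMSG. The exact two-sided permutation test over arrays gave p = 0.0286, the smallest that 4 arrays against 4 allow. After Benjamini-Hochberg adjustment over 4 such comparisons it was 0.114, which does not pass 0.05. With the other comparisons above that smallest p, the adjusted value could not have passed. Since each probe separated the labels by itself, in opposite directions, their difference had to separate them as well. The direction was the same in all 13 alternatives of this comparison, with values of 1.53 to 3.14.

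The promoters of the oppositely directed pair Edn1 and Edn2 are shown from 250 to 91 bases before the start, from RefSeq on the GRCr8 build, at chr17:22666778-22666937 on the minus strand and chr5:139036326-139036485 on the plus strand. Capitals mark matches to the motifs searched over the 250 bases before the start.
Edn1 promoter: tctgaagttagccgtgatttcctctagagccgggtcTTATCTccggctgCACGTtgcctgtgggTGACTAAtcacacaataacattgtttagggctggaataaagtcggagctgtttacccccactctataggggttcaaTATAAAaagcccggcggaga
Edn2 promoter: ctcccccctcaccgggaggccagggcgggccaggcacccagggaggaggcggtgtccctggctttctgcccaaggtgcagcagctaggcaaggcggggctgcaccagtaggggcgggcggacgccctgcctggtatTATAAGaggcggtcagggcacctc

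A TATA-type match, TATAAN on the given strand, begins 110 bases before the start in Edn1 and 114 bases before it in Edn2, and 16.7% of 33469 promoters hold one. Edn1 also holds AGATAA, the GATA motif, 214 to 209 bases before the start (10.3% of promoters), the hypoxia response core ACGTG 201 to 197 bases before it (16.6%), both read on the other strand, and the AP-1 variant TGACTAA 186 to 180 bases before it (1.99%). The last 3 were searched on both strands, and no match to any of them lay in the Edn2 window. The AP-1 motif TGANTCA (6.34% of promoters) was in neither window. These are matches of letters only. The promoters of Ednra, Ednrb and Ece1 held none of the 5 motifs, and Edn3 was not examined.

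Ednra encodes the receptor of vascular and follicular smooth muscle. Its brighter probe read -0.997, -0.92, -0.81 and -0.94 on the control arrays and -0.67, -0.60, -0.71 and -0.45 on those labelled PMSG. The labels did not overlap, though control 3 and PMSG 3 were close. The difference was 0.31 (SE 0.10, 95% CI 0.09 to 0.53), 1.24-fold, between means of -0.92 ± 0.08 and -0.61 ± 0.12 (SD, n = 4 each; adjusted p = 0.0393, limma). Median centring left 0.14 (adjusted p = 0.513, limma). Leaving out any array but PMSG 3 ended the call, as did the slide row as a block (adjusted p = 0.0539, limma) and the replicate number as a block (adjusted p = 0.0957, limma).

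The dimmer Ednra probe ran the other way. It read -4.89, -4.93, -4.55 and -5.00 on the control arrays and -6.88, -5.76, -4.99 and -5.58 on those labelled PMSG, so that PMSG 3 lay within the control range and PMSG 1 far below the rest. On PMSG 1 its 2 spots had signals of 3.10, not well above background, and 22.5. The difference of -0.96 (SE 0.36, 95% CI -1.78 to -0.14) did not pass (adjusted p = 0.0703, limma). It passed under 5 alternatives, from -1.25 to -0.60, among them without PMSG 3 (-1.23, adjusted p = 0.0243, limma), and was -0.60 without PMSG 1 and -0.15 under normexp. As the sequences above show, this is the probe that shares 43 of 49 bases with that of Ednrb. Whether this likeness bears on its values was not tested.

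The brighter probe minus the dimmer one, described without a test because it was chosen after both had been seen, read 3.90, 4.00, 3.74 and 4.06 on the control arrays, and 6.21, 5.16, 4.27 and 5.13 on those labelled PMSG. The shift between labels was 1.27, or 0.93 without PMSG 1, whose dimmer-probe level of -6.88 lies below that array's dimmest spot well above background (-6.16), and 0.45 under normexp. With both probes averaged, Ednra differed by -0.32 (adjusted p = 0.229, limma), the opposite sign to its brighter probe. A direction for Ednra as a gene is therefore not given by these arrays.

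Ednrb encodes the receptor of endothelium that also removes endothelin from the blood. Its levels were -1.11, 0.02, -0.95 and 0.31 on the control arrays and 0.26, 0.21, -0.42 and -0.70 on those labelled PMSG. Controls 1 and 3 were the lowest of all arrays and control 4 the highest, and every array labelled PMSG lay within the control range. The difference was 0.27 (SE 0.37, 95% CI -0.59 to 1.12; adjusted p = 0.593, limma) between means of -0.43 ± 0.70 and -0.17 ± 0.47 (SD, n = 4 each), an interval that holds changes of either sign. No alternative called it, with adjusted p from 0.316 to 0.939.

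The spread of Ednrb between control arrays was wide for a probe of its brightness. Its control SD of 0.70 exceeded that of 98.9% of the 2174 probes within 0.5 log2 units of its level, and the median control SD of all tested probes was 0.16. Its 2 spots agreed closely on every array, with an SD between 0.01 and 0.05. The row of each array on the slide was inferred from its barcode. In the controls the spread followed this row. Controls 2 and 4 lay in the first row with a mean of 0.17, and controls 1 and 3 in the second with a mean of -1.03. Arrays labelled PMSG had means of -0.11 in the first row and -0.22 in the second. Within rows, with 2 arrays of each label, the difference was -0.27 in the first and 0.81 in the second. Row and animal cannot be told apart for single arrays.

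**Figure D3:**
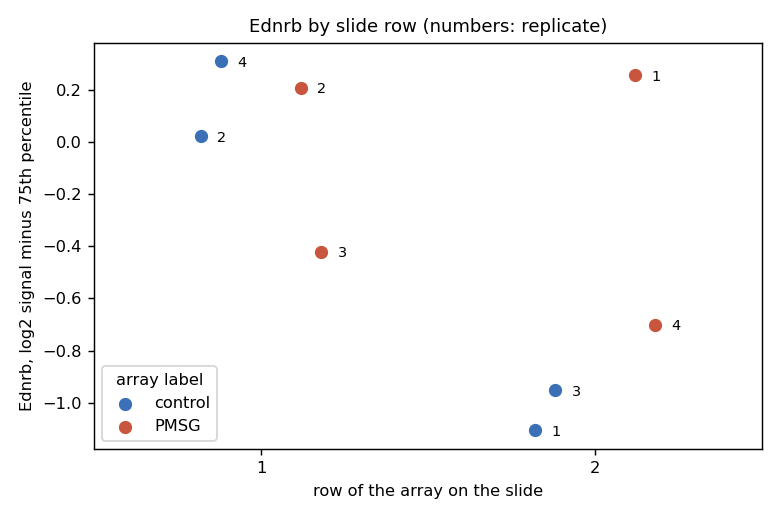
Ednrb level as log2 signal minus the array's 75th percentile, by the row of the array on the slide, as inferred from its barcode. Points are arrays, coloured by label and numbered by replicate. Control arrays fall into a high pair in row 1 and a low pair in row 2, while arrays labelled PMSG span nearly the same range in both rows.

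For the other probes, the difference had the same sign in both rows. It was 1.16 and 0.75 for Edn1, -2.15 and -1.76 for Edn2, and 1.61 and 2.70 for Edn3 in the first and second row. The brighter and dimmer Ednra probes gave 0.28 and 0.34, and -0.41 and -1.51. The brighter and dimmer Ece1 probes gave 0.56 and 0.19, and -0.65 and -0.44.

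The receptors were also set against each other and against marker lists on the same array. The brighter Ednra probe minus Ednrb moved by 0.04 between labels (exact two-sided permutation test, p = 0.8286, adjusted 0.8286), and its sign turned when control 2, control 4, PMSG 3 or PMSG 4 was left out. Ednrb minus the mean of the endothelial markers moved by 0.50 (p = 0.371, adjusted 0.495, exact permutation), and Ednra minus the mean of the smooth muscle markers by 0.47 (p = 0.171, adjusted 0.343, exact permutation). None of these exceeded the spread between arrays.

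Ece1 encodes the membrane protease that releases active endothelin from its inactive intermediate. Its brighter probe read 3.82, 3.74, 3.81 and 3.78 on the control arrays and 4.09, 4.31, 4.33 and 3.93 on those labelled PMSG. The controls lay within a narrow band and all 4 arrays labelled PMSG above it. The difference was 0.38 (SE 0.11, 95% CI 0.12 to 0.64), 1.30-fold, between means of 3.79 ± 0.04 and 4.16 ± 0.19 (SD, n = 4 each; adjusted p = 0.0335, limma). The call was lost under median centring (0.21, adjusted p = 0.194, limma), with replicate number as a block (adjusted p = 0.0715, limma) and on leaving out any array but PMSG 4.

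The dimmer Ece1 probe was lower in arrays labelled PMSG. It read -1.46, -1.22, -1.17 and -1.31 on the control arrays and -1.86, -1.78, -2.06 and -1.65 on those labelled PMSG, again without overlap. The difference was -0.55 (SE 0.12, 95% CI -0.82 to -0.28), with controls 1.46-fold higher (adjusted p = 0.00838, limma), and it passed under all 17 alternatives at -0.72 to -0.45. The brighter probe minus the dimmer one shifted by 0.92 between labels, a description that follows from the opposite directions of the probes. With both probes averaged, Ece1 differed by -0.086 (adjusted p = 0.444, limma). The brighter probe carries an Ensembl and the dimmer a RefSeq transcript accession in the files, and no direction for the gene as a whole is given by them.

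**Figure D4:**
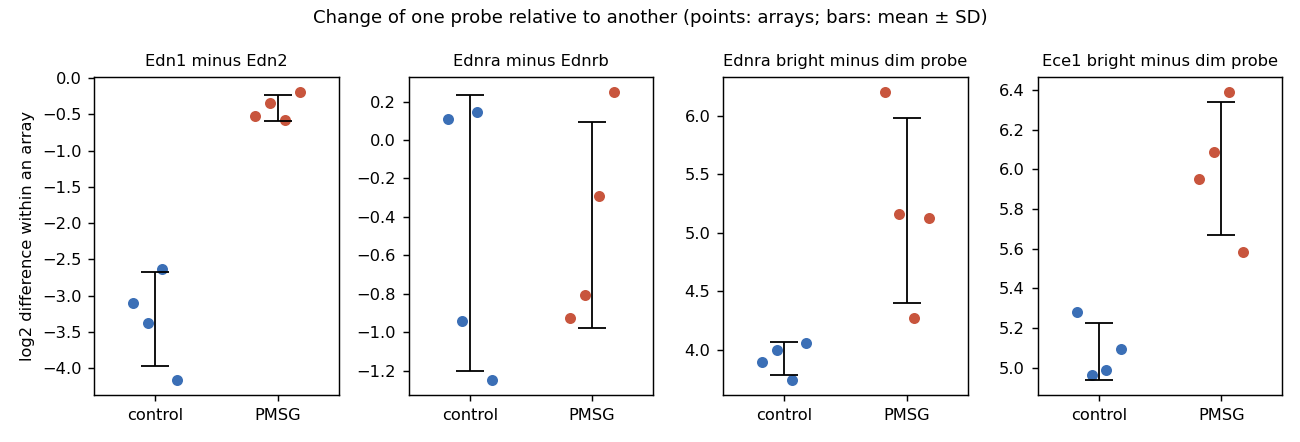
Log2 difference between 2 probes on the same array, by array label; points are the 4 arrays of a label and bars the mean ± SD. Edn1 minus Edn2 and the brighter minus the dimmer probe of Ednra and of Ece1 separate the labels, and Ednra minus Ednrb does not; only the shift between labels is read, not the level.

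Genes of the wider endothelin pathway were taken from 5 lists, of which 42 of 45 genes were tested: 12 were higher and 9 lower in arrays labelled PMSG, with a median difference of 0.10 against 0.11 over all probes. The share called was 50% of genes, each counted by its brightest probe. Of all tested probes, with every probe of a gene counted, 34.2% were called, 17.6% higher and 16.6% lower. The 2 shares are therefore not like for like. With arrays centred on the median, 5 were higher and 11 lower, and the median difference was -0.07 (-0.06 under quantile normalization). Of 10 genes of precursor processing and breakdown, 4 were higher and 2 lower. Cma1, the mast cell chymase that can also cut endothelin precursors, was higher by 1.35 (SE 0.24, adjusted p = 0.00353, limma). Ece2, a second converting enzyme, was above background on 3 of the 4 control arrays and at least 2.05-fold above control in arrays labelled PMSG (adjusted p = 0.0248, limma), a call that median centring and quantile normalization ended (adjusted p = 0.0607 and 0.140, limma). Pcsk6, a furin-like protease, and Ecel1, a relative of Ece1, were higher by 0.49 and 0.60, and Pcsk5 and Mmel1, a relative of neprilysin, were lower, by -0.62 and -0.78. Median centring ended the call of Pcsk6 (adjusted p = 0.0774, limma), and normexp that of Mmel1, at -0.078 (adjusted p = 0.565, limma). Furin (0.27) and Mme, neprilysin itself, which degrades endothelin (-0.09), did not pass.

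Signalling genes were divided by route. Of 13 genes of the Gq, phospholipase C and calcium route, 5 were higher and 2 lower, but 0 were higher under median centring (limma; 2 at an unadjusted p under 0.05). Prkcb, a calcium-dependent protein kinase C, was higher by 0.70 (adjusted p = 0.00458, limma) with another probe at -0.17, and Itpr1, an inositol trisphosphate receptor, by 0.62 (adjusted p = 0.0106, limma) with another probe at 0.08.

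Of 7 tested genes of Gi coupling and receptor desensitisation, 1 was higher and 4 lower. Grk5, a kinase that phosphorylates activated receptors, was lower by -1.34 (SE 0.17, adjusted p = 0.000712, limma), and Arrb2, an arrestin that binds such receptors, was higher by 0.84 (SE 0.10, adjusted p = 0.000647, limma). Of 5 tested genes of nitric oxide and cGMP signalling, Nos3, the endothelial synthase, was lower by -1.26 (SE 0.20, adjusted p = 0.00194, limma) and Nos2, the inducible one, higher by 0.82 (SE 0.22, adjusted p = 0.023, limma). The median of this list, 0.07, turned to -0.10 under median centring and -0.16 under quantile normalization. Of the endothelial markers beside Nos3, Flt1 was lower by -1.04 (adjusted p = 0.00574, limma) and Cldn5, a tight junction gene, higher by 1.55 (adjusted p = 0.0167, limma). Tek was above background on 3 arrays labelled PMSG, and controls were at least 2.02-fold higher, with the call lost under normexp (adjusted p = 0.175, limma). Of 7 hypoxia genes, each counted by its brightest probe, only Egln3, an oxygen sensor, passed, at 0.57 (adjusted p = 0.0226, limma). Hif1a differed by -0.11 (adjusted p = 0.455, limma). Vegfa has 4 probes, of which the brightest differed by -0.26 without passing (adjusted p = 0.198, limma). Its other probes were all lower by more than that, the smallest of their differences being -0.62, so the count does not show Vegfa as unchanged.

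Ovulation genes were listed because of the known place of Edn2 there. Of 7 tested, 3 were lower and 1 higher. Ereg and Areg, ligands of the epidermal growth factor receptor that the ovulatory hormone surge induces, were both lower: Ereg was not well above background on any array labelled PMSG and was at least 18.3-fold higher in controls (adjusted p = 1.16e-05, limma), and Areg was lower by -4.08 (SE 0.45, adjusted p = 0.000449, limma). Adamts1, a protease of the ovulating follicle, was lower by -1.31 (adjusted p = 0.00474, limma), and Ptx3, a matrix protein of the expanding cumulus, higher by 1.55 (adjusted p = 0.018, limma). Pgr, the progesterone receptor, differed by -0.60 (adjusted p = 0.261, limma).

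**Figure D5:**
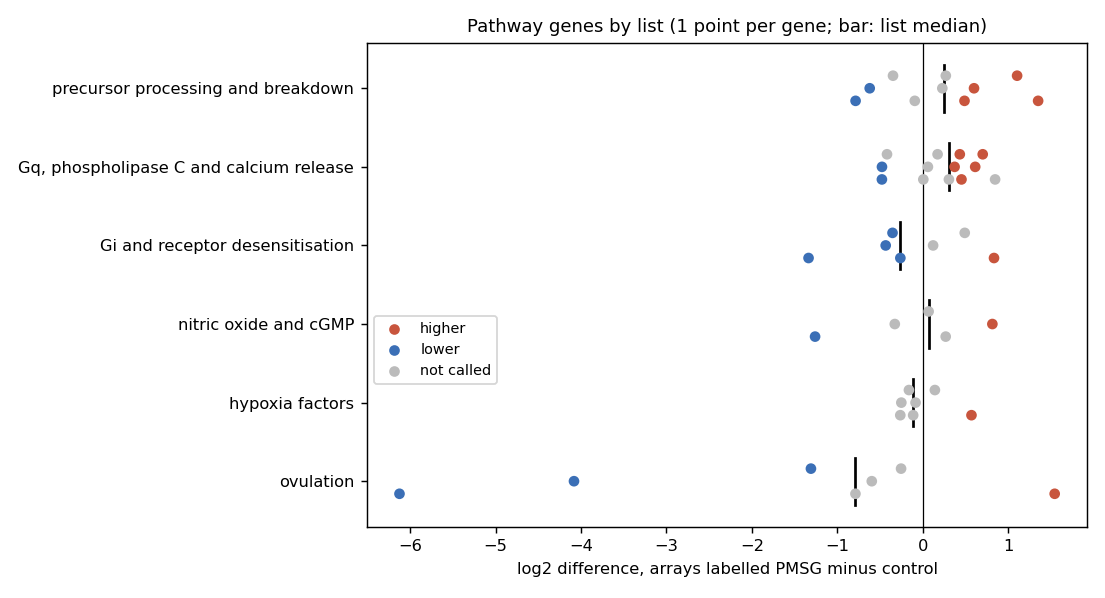
Log2 difference between arrays labelled PMSG and control for each tested gene of the 6 lists, 1 point a gene, coloured by whether it passed an adjusted p of 0.05; short bars are list medians. Every list but that of the hypoxia factors has genes called in both directions. The 2 points far to the left in the ovulation list are Areg and Ereg. The fitted value of Ereg is no measure of size because no array labelled PMSG was above background.

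The genes most like each member over the 8 arrays were found as the smallest root mean square distance between centred profiles, among about 10893 named genes well above background on every array. For Edn1 these were Atoh8 (0.10), Tcp11l2 (0.12) and Coq10a (0.13), and for Edn2 Sult1b1 (0.23), Slc27a6 (0.25) and Anp32e (0.28). Edn3 had Myh6 (0.32), Sorcs3 (0.33) and Car11 (0.33), distances wider than those of the other ligands. The brighter Ednra probe had Pdgfa, Fkbp7 and Plekha1 (all 0.05) and the dimmer one Tmem252 (0.27), Sft2d2 (0.29) and Ctbs (0.30), with no gene in common. Ednrb had Mill1 (0.24), Srsf5 (0.29) and Msh5 (0.31). These were lower on controls 1 and 3 than on controls 2 and 4, which follows from their choice by likeness to the Ednrb profile. The brighter Ece1 probe had Dynll2 (0.05), Vamp8 (0.06) and Tmem98 (0.06), and the dimmer one Pafah1b2 (0.07), Cpsf3 (0.08) and Mafg (0.08). All points share the 8 arrays, so these are descriptions of likeness without a test.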

How the data were processed

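RNA from rat ovary was hybridised to 8 Agilent 1-colour arrays, all on 1 slide. Per the file headers, the authors extracted spot intensity with Agilent Feature Extraction 11.5.1.1, with detrending and surrogates for dim spots, on the rn4 build. A log2 table deposited with them matched scanner signals scaled to the 75th percentile of each array (r at least 0.998 across probes), without centring. Columns not used numbered 0.

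Control and outlier spots were left out and spots of a probe averaged on the log2 scale. No spot was saturated. Probes well above background on at least 4 of 8 arrays, in at least 0.5 of their usable spots, were tested with limma 3.58.1 in R 4.3.3 (lmFit, eBayes; Benjamini-Hochberg over 25303 probes; threshold 0.05). The procedure was run on simulated data with independent noise and far fewer changed probes than were called here. That run therefore does not check the calls made here. Differences between probes used exact permutation tests over arrays. The number of arrays limits the precision.

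Members, lists and tests were chosen with earlier results of these data known. A list gene was represented by its brightest probe. Named were all members, up to 2 called genes per pathway list and 1 per marker list with the largest difference, and the 3 genes most like each member. Other list genes and Lhcgr were named after their values were seen, as were the differences between 2 probes of a gene and the slide rows. Adrbk2, Nos1, Prkg1, Ptgs2, Btc, Il6 and Cyp19a1 were not tested. Grk2 was reached through its accession. A further list is not reported here.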

Additional observations from a re-analysis of the deposited data

Results flagged for a closer look

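No member probe was flagged. Among 90 groups of 4 arrays examined, 5 held an array far from the other 3 by Dixon's criterion, and chance alone gives about 4.5. Insl3 read 2.49 on PMSG 4 and 3.50 to 3.59 on the others of that label (gap 0.921 of the range), and the mean of the theca list was 0.87 there against 1.77 to 1.87 (gap 0.897). Areg read -3.23 on PMSG 2 and -5.33 to -5.11 on the others (gap 0.897). Egln3 read -1.53 on PMSG 3 and -1.99 to -1.91 on the others (gap 0.844), and the mean of the macrophage and leukocyte list was 0.48 there against 0.39 to 0.40 (gap 0.884).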

How the results depend on the processing

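Edn2, Edn3 and the dimmer Ece1 probe passed, and Ednrb did not, under all 17 alternatives to each. The count of called probes stayed within 1.5 times the 8658 reported, from 6552 to 11382 on leaving out 1 array. The highest count came without PMSG 4. In the fit with array weights PMSG 4 had the lowest weight, 0.28, against 0.67 to 1.95 for the other arrays. The count of pathway genes, with the ovulation list included, ran from 17 to 28 against 25. Edn1 missed the threshold only under quantile normalization (0.65). The brighter Ednra probe missed it under median centring (0.14), without a filter on dim probes, with replicate block and with slide row as block (0.31 each), and in 7 of 8 leave-one-out fits (0.26 to 0.35). The dimmer Ednra probe passed under quantile normalization (-1.25), median centring (-1.13), the deposited log2 table (-0.60) and array weights (-1.17), and once on leaving out an array (range -1.23 to -0.60). The brighter Ece1 probe missed it under median centring (0.21), with replicate block (0.38) and in 7 of 8 leave-one-out fits (0.32 to 0.46). Averaging a gene's probes reversed Ednra (-0.32), Ece1 (-0.086), Ednra minus Ednrb (-0.59) and Ednra minus the smooth muscle list (-0.15). Ednra minus Ednrb also reversed on leaving out control 2 (-0.11), control 4 (-0.21), PMSG 3 (-0.01) or PMSG 4 (-0.19), range -0.21 to 0.25. Member genes past the threshold numbered 2 under median centring, replicate block and averaged probes, and 2 to 3 on leaving out an array. The brighter minus the dimmer Ednra probe was 0.45 under normexp, and 0.93 to 1.57 on leaving out an array. The offset of 50 in normexp shrinks the differences of dim probes by construction, and other causes were not tested. Same-numbered arrays correlated at 0.04, 0.04, 0.18 and -0.02 in their deviations. Differently numbered arrays were not compared, so these values cannot decide whether the numbers pair the arrays. The replicate block called 7346 probes.

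Edn1 and the dimmer Ednra probe are close to background (mean signals 25.0 and 25.1), as is Edn3 on the control arrays (signals 17.3 to 43.9). The brighter Ednra probe rests on 1 spot per array.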
